A study of Homo sapiens with 2 samples.

Results

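Keratins are the intermediate filament proteins of epithelial cells, and keratin-associated proteins form the matrix around the keratin filaments of hair. Probe sets were taken as members when each of their annotated gene symbols began with KRT and a digit or with KRTAP, and 14 further sets were left out because a symbol named a pseudogene or a gene outside the families. The rule found 190 probe sets of the 49293 that are not array controls: 67 for keratins, 121 for keratin-associated proteins and 2 for KRT10-AS1, an antisense RNA whose name matches the rule. They carried 131 of the 19605 distinct symbols on the array, 47 of keratins and 83 of keratin-associated proteins besides KRT10-AS1.

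The cells were HCT116, a human colorectal carcinoma line, hybridised to Affymetrix arrays. One array held SUN2 knockdown cells, which carried the short hairpin shSUN2-1, and the other held control cells with the scrambled sequence Scr. Both came from 100 ng of total RNA, and these are bulk samples, in which fewer cells of a type and less RNA per cell cannot be told apart. With 1 array in each group, 1 hairpin and 1 line, no value has a replicate, and no test, standard error or p-value exists for any difference. The comparison asks which transcripts lie downstream of SUN2, a protein of the inner nuclear membrane that ties the nucleus to the cytoskeleton.

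Keratins work as pairs, a type I chain with a type II chain. KRT8 with KRT18 is the first pair of simple epithelia such as the gut lining, joined there by KRT19 and, in differentiated cells of the intestinal surface, by KRT20. Other pairs mark the basal and upper layers of stratified epithelia, and the hair keratins and keratin-associated proteins are made in the hair follicle. Type I genes lie in one cluster on chromosome 17, interrupted by several keratin-associated families. Type II genes lie together on chromosome 12, with the type I gene KRT18 beside KRT8. SUN proteins hold nesprins at the nuclear envelope, and nesprin-3 binds plectin, a linker of intermediate filaments.

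The upstream sequence of KRT20 is shown because it was among the most different keratins. Those of KRT13, KRT15, KRT18, KRT19 and KRT23 were not used here. The sequences of the 4 KRTAP2 copies are shown because neighbouring copies gave very different values and nearly match from the TATA box on. All are from RefSeq, GRCh38.p14, minus strand, 5′ to 3′, and end at or before the annotated start. In KRT20 the capitals mark CCAAT, whose first base lies 79 bases before the start, and in the KRTAP2 copies they mark TATAAA.
KRT20, chr17:40885243-40885492: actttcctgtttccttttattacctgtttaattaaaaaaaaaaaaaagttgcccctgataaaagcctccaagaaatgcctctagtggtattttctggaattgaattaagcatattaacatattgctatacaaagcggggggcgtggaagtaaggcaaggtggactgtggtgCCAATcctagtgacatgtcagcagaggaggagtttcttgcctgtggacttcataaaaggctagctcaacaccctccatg
KRTAP2-1, chr17:41047332-41047399: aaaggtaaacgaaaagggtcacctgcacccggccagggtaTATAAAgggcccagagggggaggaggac
KRTAP2-2, chr17:41055276-41055343: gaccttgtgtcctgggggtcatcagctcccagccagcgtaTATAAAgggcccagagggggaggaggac
KRTAP2-3, chr17:41060115-41060182: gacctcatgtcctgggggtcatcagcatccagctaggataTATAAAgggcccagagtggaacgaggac
KRTAP2-4, chr17:41065910-41065977: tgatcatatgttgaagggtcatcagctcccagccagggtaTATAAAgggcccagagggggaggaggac

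From the first base of TATAAA onward, KRTAP2-1, KRTAP2-2 and KRTAP2-4 each matched KRTAP2-3 at 25 of 28 bases. Over the 68 bases without gaps, KRTAP2-2 matched it at 58, and KRTAP2-1 and KRTAP2-4 at 46 each. A TATAAA on either strand was found in 54 of 70 windows of keratin-associated genes and 18 of 32 windows of keratin genes, where a window runs from 250 bases before to 50 bases after the start. These are 77.1% and 56.2%, while 3264 of all 27305 windows held it. GGGCGG was found in 1.43% of the keratin-associated windows and 18.8% of the keratin windows, against 44.6% of all. CCAAT was found in 27 of 70 and 16 of 32, against 35.7% of all. TGANTCA was found in 6 of 70 and 0 of 32, against 7.76% of all. Of the 131 symbols, 103 had a window. No motif searched contains another, and a match describes letters, not a bound site.

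The targeted gene, SUN2, was lower in knockdown cells, by less than 1.5-fold on every probe set. Its brightest probe set had an intensity of 407.3 in knockdown cells and 497.7 in control cells, 1.21-fold lower on the log2(intensity + 16) scale, on which every difference and fold below is given as knockdown minus or over control. The other bright SUN2 sets read 393.4 and 304.4 in knockdown cells, against 510.4 and 403.5 in control cells (-0.36 and -0.39). All 6 SUN2 probe sets were lower, by between -0.39 and -0.05. Few sets were as low as the bright ones: 0.694% of all sets past the filter lay below -0.275, the difference of KRTAP9-3. Of 10 markers of colon epithelial lines, 8 passed the filter on low values described next, while VIL1 and CDH17 lay below it. EPCAM passed with 1480 in knockdown cells and 1342 in control cells. Passing does not mark a cell type here: 5 of 5 hair follicle and 3 of 5 endothelial markers passed as well. Of immune markers 2 of 5 passed, and of fibroblast and keratinocyte markers 2 of 6 each. Background remained in the deposited intensities, so a probe set without any transcript is not near 0. The 23 background controls, designed to match no human transcript, ran with their number of G and C bases from 31.4 to 1128 in the knockdown array and from 31.2 to 1425 in the control array. Of these controls 20 were lower in the knockdown array.

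The median intensity of probe sets other than array controls was 107.1 in the knockdown array and 108.8 in the control array. Of the 190 members, 102 were above the median on both arrays, 1 in the knockdown array only, 2 in the control array only and 85 on neither. KRT20 was the member above the median only in knockdown cells, so it passed the filter through the group where it is high. KRTAP6-1 and KRTAP19-5 each had 1 set above it in control cells only, at 106.4 and 101.8 in knockdown cells and 115.3 and 109.9 in control cells. The filter used below keeps sets whose mean on the log2 scale reaches the median of these means, an intensity of about 108.1. It kept 104 members, 33 of keratins, 69 of keratin-associated proteins and both of KRT10-AS1. The last kept were KRTAP6-1, KRT37 (110.7 in knockdown and 112.0 in control cells) and KRTAP5-11 (107.5 and 115.8), and just outside were KRTAP20-2 (102.4 and 108.4), KRT25 (104.7 and 106.1) and KRTAP19-5. By role, 14 of 15 sets of simple epithelial keratins passed, against 7 of 17 of hair keratins and 1 of 8 of inner root sheath keratins.

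The keratins of simple epithelia were higher in SUN2 knockdown cells, and most keratin-associated sets were slightly lower. Of 104 members past the filter, 4 were at least 1.5-fold higher: KRTAP2-3, KRT23, KRT20 and KRT13. At this fold 0.296% of all 24647 probe sets past the filter were higher. Of the 102 members above the median on both arrays, which leaves out KRT20, 3 were 1.5-fold higher, against 0.255% of all such sets. None of the 104 was 1.5-fold lower, where 0.0284% of all sets were. KRTAP2-3 was 2-fold higher, where 0.0527% of all sets were, and no member was 2-fold lower, where 0.00406% were. In direction alone, 28 members were higher and 76 lower, against 51.1% and 48.9% of all sets, and the median difference was -0.07 for members and 0.0035 for all sets. Without the filter the same 4 members of 190 were 1.5-fold higher, against 0.15% of all sets, and none was lower by as much, against 0.0142%. Of the 190, 48 were higher and 142 lower, against 42.3% and 57.7% of all sets. KRT13, at 1.56-fold, lay just inside that threshold, and 2 sets of KRT8, at 1.497-fold and 1.49-fold, and KRT15, at 1.46-fold, lay just outside.

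**Figure D1:**
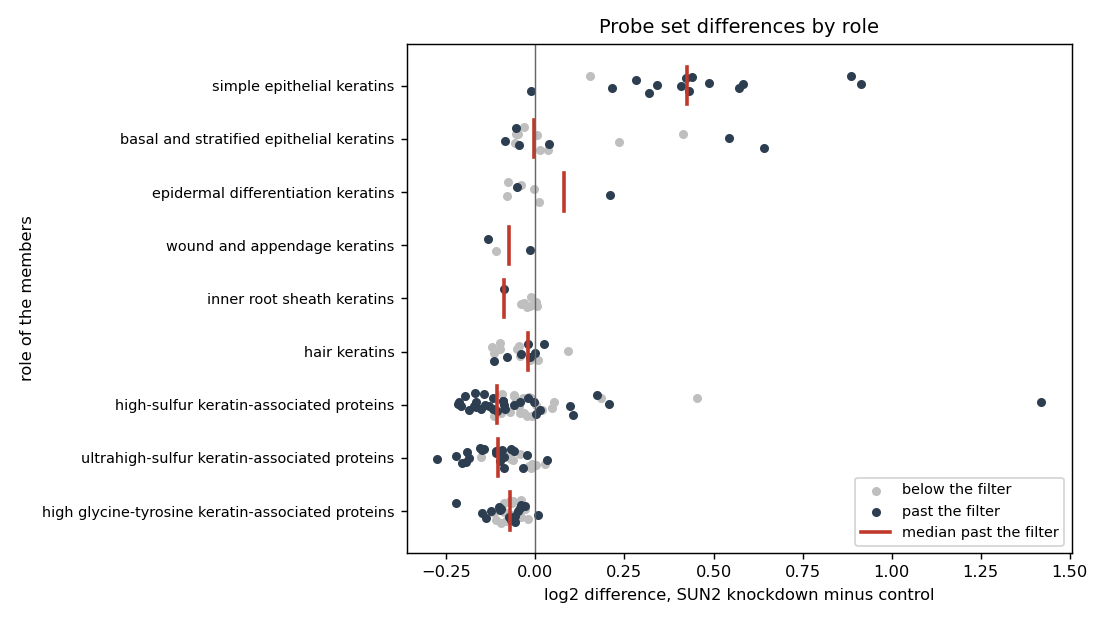
Log2 difference of each member probe set, SUN2 knockdown minus scrambled control, in rows by role. Each point is 1 probe set, dark where it passed the filter on low values and grey where it did not. The bar is the median of the dark points. It lies at 0.43 for simple epithelial keratins and between -0.11 and -0.07 for the 3 groups of keratin-associated proteins. Of the 14 dark points of simple epithelial keratins, 8 are of KRT8.

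KRT8, the type II keratin of simple epithelia, had 8 probe sets and all were higher in knockdown cells. Its brightest read 1325 in knockdown and 1041 in control cells, 1.27-fold higher (0.34), which became 0.24 with loess and 0.22 with quantile normalization. Its dimmest read 220.4 in knockdown and 141.8 in control cells and had the largest difference (0.58). The other 6 had intensities of 248.6 to 823.4 in knockdown cells and 181.2 to 607.2 in control cells and differences of 0.41 to 0.57. The mean over all 8 was 0.46. All 8 sets had the same direction, and the dimmer sets tended to the larger differences.

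KRT18, the type I partner of KRT8, was higher on both of its sets. These read 2339 and 1842 in knockdown cells, against 1872 and 1512 in control cells, differences of 0.32 and 0.28, and the brighter became 0.21 with either normalization. KRT19, a type I keratin that lacks the usual tail domain, read 3045 in knockdown and 2619 in control cells, 1.16-fold higher (0.22), which became 0.11 with loess and 0.12 with quantile normalization. Bright sets in general tended to be higher in knockdown cells: of all sets past the 75th percentile, 62.1% were higher. All 8 sets of KRT8 and both of KRT18 are of the _x_at class, in which probes may match other sequences, and both genes have many pseudogenes. Signal from those copies cannot be told apart here. The set of the pseudogene KRT18P55, no member, read 106.0 in knockdown and 97.76 in control cells.

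KRT20, the keratin of differentiated intestinal surface cells, read 181.8 in knockdown and 91.11 in control cells on its 1 set, 1.85-fold higher (0.88). The control value is below the median of that array, and it lies between 84.56 and 98.59, the control-array values of the background probes of 15 and 16 G or C bases. Its difference ran from 0.66 to 1.18 over the alternatives tried. KRT23, a type I keratin that histone deacetylase inhibitors induce in pancreatic cancer cells, was close to KRT20 in its difference. It read 372.1 in knockdown and 190.1 in control cells, 1.88-fold higher (0.91), also on 1 set. It was above KRT20 on this scale but below it with loess (0.90 for KRT23 and 0.91 for KRT20), quantile normalization, a pseudocount of 1 and normexp, so the order of the pair is not settled. Background probes of 18 and 19 G or C bases read 182.0 and 235.9 in control cells, either side of its control value.

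The remaining keratins of this role differed little. KRT7, a type II keratin of glandular and ductal epithelia, read 93.36 in knockdown and 82.27 in control cells, below the filter, a difference of 0.15. KRT80, a type II keratin found in many epithelia, read 132.3 and 133.6, a difference of -0.01. As genes, each by its brightest set, 5 of the 6 simple epithelial keratins past the filter were higher, against 49.8% of all 12220 genes, and 2 were at least 1.5-fold higher, against 0.336%. None was 1.5-fold lower, against 0.0245%. Their median difference was 0.33, against -0.0009 for all genes. With genes required to be above the median on both arrays, which leaves out KRT20, 4 of 5 were higher, against 49.8% of 12014 genes, and 1 was 1.5-fold higher, against 36 of 12014. The median was then 0.32. Of the 14 sets past the filter 13 or 14 were higher under each scaling between the arrays that was tried, the exception being KRT80. The share of all sets that were higher ran from 44.5% with quantile normalization to 56.7% with median centring. Of the 14 sets, 8 were of KRT8 and 2 of KRT18, and sets of 1 gene are not independent.

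**Figure D2:**
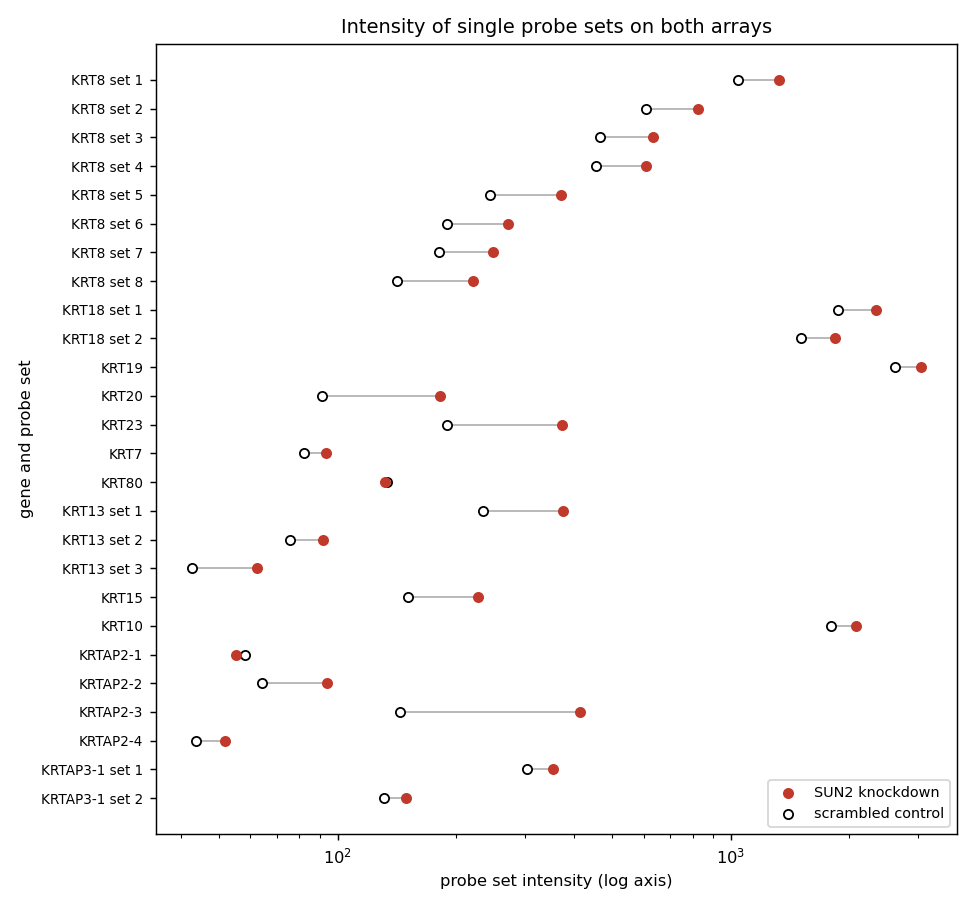
Intensity of single probe sets on the 2 arrays on a log axis, with SUN2 knockdown as filled and scrambled control as open points, 1 row a probe set and the sets of a gene in order of control intensity. All rows but KRT80 and KRTAP2-1 have the knockdown point to the right, with the widest gap for KRTAP2-3, at 412.9 in knockdown and 144.2 in control cells.

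Among keratins of stratified epithelia, KRT13 and KRT15 were higher and the others were near 0. KRT13, a type I keratin of internal mucosae, had 3 sets, of which 1 passed the filter. That set read 374.9 in knockdown and 234.4 in control cells (0.64). The sets below the filter read 62.27 and 91.58 in knockdown cells, against 42.71 and 75.48 in control cells (0.41 and 0.23), so all 3 were higher. KRT15, a type I keratin of basal keratinocytes and hair follicle stem cells, read 227.4 in knockdown and 150.9 in control cells on its 1 set, 1.46-fold higher (0.54).

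KRT4, the usual type II partner of KRT13, read 220.6 in knockdown and 228.1 in control cells, and so did not share its difference. The classical basal pair, KRT5 and KRT14, read 293.3 and 161.3 in knockdown cells, against 305.0 and 172.1 in control cells, differences of -0.05 and -0.09. Markers of keratinocytes outside both families gave 1 of 6 higher, against 42.3% of all probe sets without a filter. Their summed intensities were 735.5 in knockdown and 766.0 in control cells, and none was at 0. Only 2 of these 6, IVL and SBSN, passed the filter. Of 6 sets past the filter in this role, 3 were higher, against 51.1% of all sets, and their median was -0.0038, which took either sign between scalings.

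KRT10, a type I keratin of the upper epidermis, read 2084 in knockdown and 1800 in control cells on its 1 set (0.21, but 0.10 with loess or quantile normalization), while its type II partner KRT1 read 93.27 in knockdown and 93.63 in control cells, below the filter. KRT9, a keratin of palm and sole skin, read 287.7 in knockdown and 298.5 in control cells (-0.05). The 2 sets of KRT10-AS1 went opposite ways, with 545.2 and 160.8 in knockdown cells, against 493.9 and 176.1 in control cells (0.14 and -0.12). KRT6C, a keratin of the palmoplantar epidermis and of appendages, read 621.1 in knockdown and 628.1 in control cells on one set (-0.02) and -0.13 in difference on the other.

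Hair and inner root sheath keratins were not higher with the simple epithelial genes. Of 7 hair keratin sets past the filter, 1 was higher, against 51.1% of all sets, with differences from -0.12 to 0.02 and a median of -0.02. With median centring or loess 3 of 7 were higher, against 56.7% and 49.9% of all sets. The lowest was KRT83, a type II hair keratin, with 217.7 in knockdown and 237.2 in control cells. KRT33B, a type I hair keratin, read 226.9 in knockdown and 240.6 in control cells (-0.08). The 1 inner root sheath keratin past the filter, KRT73, read 139.1 in knockdown and 148.8 in control cells (-0.09). KRT222, a keratin-like gene, read 199.1 in knockdown and 199.9 in control cells.

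Keratin-associated proteins were lower as a group by small amounts, apart from the KRTAP2 and KRTAP3 families. Of 69 sets past the filter 60 were lower, against 48.9% of all sets, and their median difference was -0.10. Between 59 and 63 were lower under the scalings that were tried. The high-sulfur families had 24 of 31 sets lower (median -0.11), the ultrahigh-sulfur families 21 of 22 (-0.10) and the high glycine-tyrosine families 15 of 16 (-0.07). The background controls moved with these sets: the 9 controls past the filter, with 17 to 25 G or C bases, were all lower in the knockdown array, by -0.06 to -0.33 with a median of -0.10. Their part in the lower values was not tested. Markers of the hair follicle outside the families, such as the hair keratin regulator HOXC13 (-0.04), were also lower in 5 of 5, against 50.2% of all genes. Their summed intensities were 1002 in knockdown and 1070 in control cells, and none was at 0. This was not particular to hair: without a filter, 5 of 5 immune, 5 of 5 endothelial and 5 of 6 fibroblast markers were lower. Of the colon epithelial markers 5 of 10 were lower, and of all probe sets without a filter 57.7%.

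In 2 families with many sets, every set past the filter was lower, against 48.9% of all sets. The same held in smaller families such as KRTAP6 and KRTAP9, with 4 sets each. All 17 sets of the KRTAP10 family, on chromosome 21, were lower, by -0.22 to -0.04, and all 13 sets of the KRTAP5 family past the filter, on chromosome 11, by -0.22 to -0.04. KRTAP10-1 read 528.9 in knockdown and 613.3 in control cells (-0.21), KRTAP10-3 533.4 and 603.0, and KRTAP10-12 669.0 and 728.6. KRTAP10-5 read 374.5 in knockdown and 438.1 in control cells on its brightest set (-0.22). KRTAP5-1 read 195.3 in knockdown and 227.5 in control cells (-0.20), while the brightest set of KRTAP5-5 read 646.8 and 663.6 (-0.04). Of the background controls, the one of 22 G or C bases read 545.8 in knockdown and 594.8 in control cells (-0.12). The one of 19 read 222.4 and 235.9 (-0.08). These were smaller differences than those of KRTAP10-1 and KRTAP5-1 at similar intensities. Against this, the control of 23 read 678.4 in knockdown and 751.1 in control cells (-0.14). That was a larger difference than those of KRTAP10-12 (-0.12) and KRTAP5-5 (-0.04). The part of background in these values was not tested.

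The lowest differences among sets past the filter were those of KRTAP9-3, KRTAP5-2 and KRTAP6-1. KRTAP9-3, an ultrahigh-sulfur member on chromosome 17, had the lowest difference of any member, with 177.5 in knockdown and 218.1 in control cells (-0.28). KRTAP5-2, an ultrahigh-sulfur member, read 156.6 in knockdown and 185.5 in control cells on its lowest set (-0.22). KRTAP6-1, of the high glycine-tyrosine class, read 1140 in knockdown and 1332 in control cells on one set (-0.22) and 106.4 and 115.3 on the other (-0.10). KRTAP4-8 read 302.2 in knockdown and 322.4 in control cells, KRTAP19-2 read 355.1 and 363.0, and KRTAP20-2 read 156.2 and 171.7 on its set past the filter. None of these reached 1.5-fold in either direction.

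**Figure D3:**
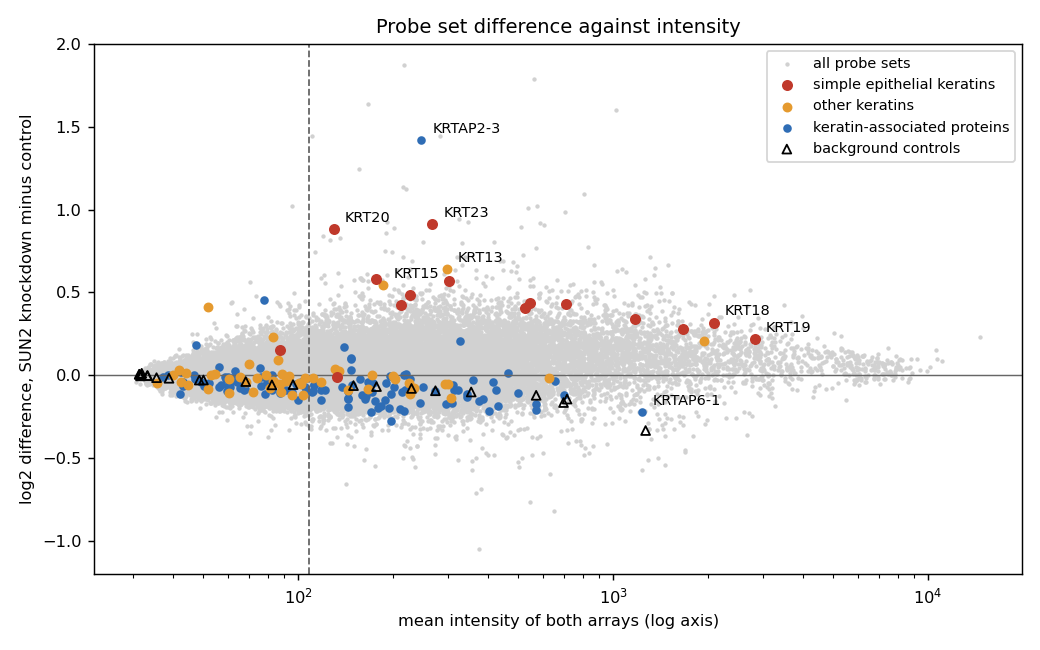
Log2 difference, SUN2 knockdown minus control, against the mean intensity of both arrays on a log axis. Grey points are all probe sets, coloured points the members, triangles the 23 background controls, and the dashed line the filter at 108.1; the 2 sets of KRT10-AS1 are not coloured, and most blue points lie at or near the triangles, below 0.

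KRTAP2-3, a high-sulfur member of a hair matrix family, had the largest difference of all members. Its 1 set read 412.9 in knockdown and 144.2 in control cells, 2.68-fold higher (1.42). It is of the _s_at class, in which probes are shared between transcripts. Its neighbours were also higher or near 0, all below the filter. KRTAP2-2 read 93.73 in knockdown and 64.11 in control cells (0.45), KRTAP2-4 read 51.72 and 43.59 (0.18), and KRTAP2-1 read 55.29 and 58.28 (-0.06). The other copies differ from KRTAP2-3 at 3 of 28 bases from the TATA box on, as printed above. Those bases end at or before the annotated start, so they do not show how alike the transcripts are. Signal of one copy on the set of another cannot be told apart. The probe sequences were not used here.

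The KRTAP3 family, beyond the KRTAP1 genes in the same cluster, was higher by less. All 4 of its sets past the filter were higher, by 0.10 to 0.21, and 5 of all 7. KRTAP3-1 read 352.8 and 149.4 in knockdown cells, against 303.5 and 130.9 in control cells. The pair of sets shared by KRTAP3-2 and KRTAP3-3 read 152.4 and 152.7 in knockdown cells, against 141.5 and 140.9 in control cells. The set of KRTAP3-2 alone went the other way, at 74.94 in knockdown and 82.53 in control cells, below the filter.

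Many of the higher members on chromosome 17 stood beside each other. In the order of their starts, KRT20 and KRT23 were neighbours, KRTAP2-2, KRTAP2-3 and KRTAP2-4 formed a run, and KRT13, KRT15 and KRT19 formed another. KRT10 (0.21) and KRTAP3-1 (0.21) were as high as KRT19 and stood outside these runs. Directly beyond these runs stood KRT12 (0.03) and KRT39 (-0.0002), KRTAP2-1 (-0.06) and KRTAP4-8 (-0.09), and KRT36 (0.09) and KRT9 (-0.05). On chromosome 12 the highest genes were KRT8 and KRT18, neighbours at the end of the cluster, with KRT78 beside KRT8 at 0.04. KRT7 (0.15), below the filter like KRTAP2-2 and KRTAP2-4, stood away from that pair. The other type II genes past the filter, KRT80, KRT83, KRT6C, KRT5, KRT73 and KRT4, differed by between -0.12 and -0.01. Whether neighbouring sets share probe sequence was not tested, and genes are not replicates, so the order is a description.

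**Figure D4:**
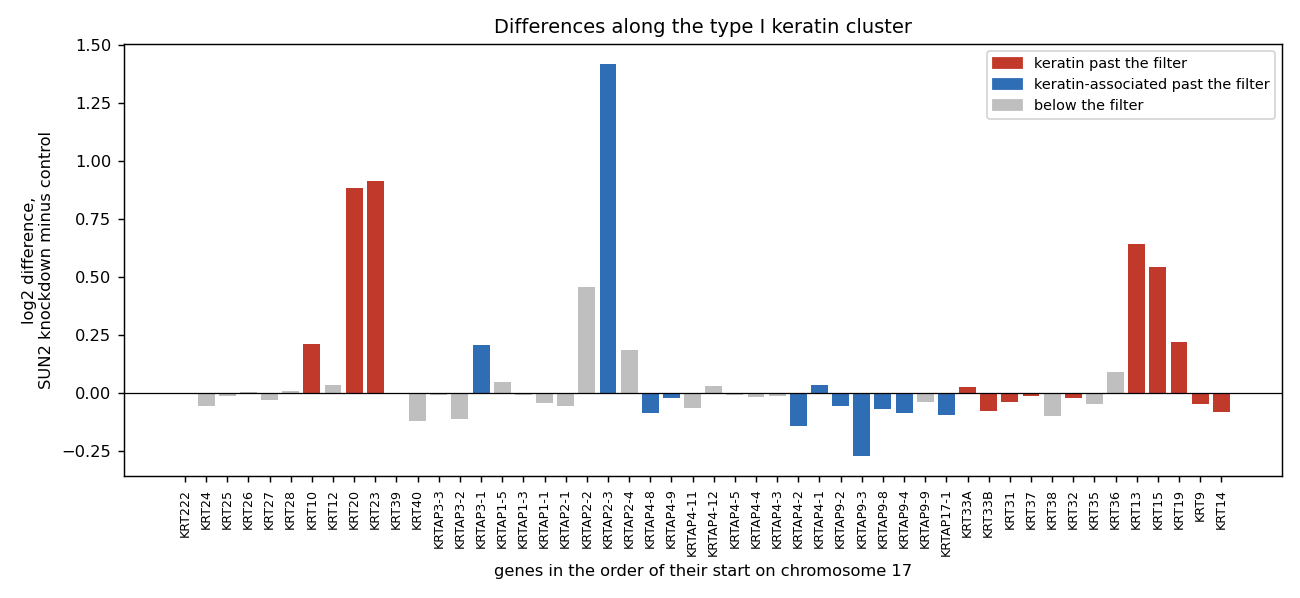
Log2 difference, SUN2 knockdown minus control, of the brightest probe set of each gene, in the order of gene starts on chromosome 17 and not to genomic scale. Red bars are keratins and blue bars keratin-associated genes past the filter, grey bars genes below it; the tallest bars are KRTAP2-3 (1.42), KRT23 (0.91) and KRT20 (0.88).

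Partners and regulators of keratins were mostly close to 0, in lists of 5 to 14 genes past the filter. Over these lists 1 gene was 1.5-fold higher, against 0.336% of all genes, and none 1.5-fold lower, against 0.0245%. FAM83H, which recruits casein kinase 1 to keratin filaments, read 592.5 in knockdown and 378.1 in control cells on its brighter set, 1.54-fold higher (0.63), and its other set was higher by 0.51. In its list of 9 keratin-binding, chaperone and turnover genes, 8 were higher by their brightest sets, against 49.8% of all genes. The median was 0.11. TRADD was among the higher at 0.06, but its other set past the filter was lower (-0.22). TCHP (0.01) and CSNK1A1 (0.02) were near 0. Some of the genes were bright, such as HSPA8 at 5164 in knockdown cells. Of all sets past the 75th percentile, 62.1% were higher. DNAJB6, a chaperone that binds KRT18, was higher by 0.36 on its 1 set past the filter, and SFN, a 14-3-3 protein that binds keratins, by 0.28. PLEC, which encodes plectin, read 784.0 in knockdown and 657.5 in control cells (0.25). Of the other plakin linkers, EPPK1 differed by -0.20 and PPL by 0.18 on their brightest sets. The other set of PPL past the filter was at -0.0002. In that list 3 of 5 were higher, against 49.8% of all genes.

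Desmosome genes, whose products anchor keratin filaments at cell contacts, were higher in 7 of 11, against 49.8% of all genes. By their brightest sets DSC3 (0.22), DSP (0.18) and PKP4 (0.16) were the highest. The other set of DSG2 past the filter was higher by 0.26, against 0.09 on its brightest. The desmosome median of 0.09 turned to -0.01 after loess and -0.03 after quantile normalization. Hemidesmosome genes had a median of 0.0058, with ITGB4 at -0.18 and CD151 at 0.12 on their brightest sets. The 7 sets of ITGB4 past the filter ran from -0.18 to 0.10, and 2 of them were higher. By their brightest sets, all 7 other cytoplasmic intermediate filament genes past the filter were lower, against 50.2% of all genes. NES stood at -0.31, INA at -0.20 and DES at -0.11. SYNM was at -0.03 on its brightest set, but its other set past the filter was higher by 0.10. The background controls past the filter had a median of -0.10, and their part in these values was not tested. Cornified envelope genes were lower in 5 of 6, against the same 50.2%, with CSTA at -0.38, TGM3 at -0.19 and TCHH at -0.13.

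Transcription factors known to act on epithelial or hair keratin genes were split by their brightest sets. Of 14 past the filter 7 were higher, against 49.8% of all genes, with a median near 0. KLF5 differed by 0.19, GRHL2 by -0.19 and GRHL1 by 0.14. On the other set past the filter, the difference was larger for KLF5 (0.57) and for KLF4 (0.48, against 0.02 on its brightest). Of the nesprin and SUN genes 4 of 5 were lower, against 50.2% of all genes, SUN2 and SYNE2 the most (-0.28 and -0.25). SUN1 was higher by 0.22 on the 1 of its 5 sets past the filter.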

How the data were processed

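The authors deposited linear intensities, 1 per probe set and array, for 49395 probe sets. MAS5 and RMA appear in the submitters' processing notes without a stated use, and the arrays' normalization was not given in the sources used here. Whether the columns were scaled or centred to each other stays unknown. The number of arrays limits the precision.

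From these, log2(intensity + 16) was taken with pandas 2.3.3 and numpy 2.4.6, and knockdown minus control gave each difference. The 102 control probe sets were kept apart. Genes, from probe sets with 1 symbol, were represented by the set with the highest mean. With 1 array per group, sets were counted past 1.5-fold and 2-fold, with no test, beside the share over all probe sets or genes. These counting steps were tested on simulated data.

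The members, the lists by role and of partners and the markers were chosen with earlier results of these data known. The text names each member past 1.5-fold, KRT7, KRT8, KRT18, KRT19, KRT20, KRT23 and KRT80, the 10 brightest genes, the 2 brightest and 2 most different past the filter per role, members whose sets past the filter disagree in sign by over 0.3, SUN2, and per partner list up to 3 genes and any past 1.5-fold. All other genes named with values, such as KRT4, KRT14, KRT1, KRTAP5-2, the genes at the filter, the chromosome neighbours and the further KRTAP2 and KRTAP3 genes, were chosen after their values were seen. The Entrez IDs of all 190 member sets matched the RefSeq annotation of GRCh38.p14, with 0 symbols changed. KRT6A, KRT6B, KRT16, KRT17, KRT34, KRT81, KRT82 and KRT86 had no probe set of their own under the rule and are not analysed here.

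Alternatives were pseudocounts of 1 and 64, median centring, quantile normalization, loess on intensity (statsmodels 0.14.6), normexp with limma 3.58.1, 3 other filters, leaving out the _x_at and _s_at classes, and averaging a gene's probe sets.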

Additional observations from a re-analysis of the deposited data

How the results depend on the processing

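No paired analysis was possible because a single array stands for each group, so leaving an array out was not possible either. KRTAP2-3, KRT23 and KRT13 stayed 1.5-fold higher wherever they were measured, except KRT13 with a pseudocount of 64 (0.56) and as the mean of its 3 probe sets (0.43). KRT20 fell outside the filter at the 75th percentile and the filter on both arrays. KRTAP2-3 has no probe set outside the _x_at and _s_at classes, nor do KRT8 and KRT18. Under the alternatives KRTAP2-3 ran from 1.20 to 1.66, KRT23 from 0.78 to 1.05 and KRT20 from 0.66 to 1.18. No member was 1.5-fold lower under any alternative. Of all sets, 0.0142% were 1.5-fold lower without a filter and 0.0649% with quantile normalization, the lowest and highest shares. With normexp and with a pseudocount of 1, the probe sets 1.5-fold higher were 7 in each, adding KRT15 and 2 sets of KRT8. The share of all sets rose as well, from 0.296% to 0.479% with normexp and 0.373% with a pseudocount of 1. The sets 2-fold higher were 3 with normexp and 0 without the _x_at and _s_at classes. No share over all sets at 2-fold is given for these settings. The sets higher were 48 of 190 without a filter and 11 of 49 without those classes, against 42.3% and 46.6% of all sets. Lower keratin sets were 8 of 21 with the filter at the 75th percentile and 37 of 67 without a filter. Lower keratin-associated sets were 28 of 33, 104 of 121 and, without those classes, 25 of 28. The number of sets kept differed between these settings, and so did the share of all sets that were higher. That share was 62.1% at the 75th percentile, 42.3% without a filter and 46.6% without those classes. The keratin median was 0.28 at the 75th percentile. By gene, the simple epithelial median was 0.23 with loess, 0.22 with quantile normalization and 0.55 without those classes, and KRT6C, alone in its role, stood at -0.12 after quantile normalization. The desmosome median was -0.0092 with loess and -0.0342 with quantile normalization. The cause of these shifts was not tested. A value counted as moved past 0.09, the SD of probe sets around their gene's mean difference over 5786 genes, which measures scatter among probes and not among cultures.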
